A study of Mus musculus with 24 samples.

Results

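The transcriptional response of T helper cells to reactivation was followed in cells treated with flavopiridol, on 8 of the 24 arrays of the series. These 8 arrays form 4 pairs of unstimulated and reactivated cells: Th1 cells at 1 µM, Th1 cells at 10 µM, Th2 cells at 1 µM and Th2 cells at 10 µM, each treated for 6 hr. The pairs were chosen by their labels alone. All cells were differentiated in vitro from female C57BL/6 mice, with 1 array per condition and no replicate. Cells with vehicle (DMSO), unstimulated and reactivated, served as the reference response, on 1 pair of Th1 arrays at 6 hr and 1 pair of Th2 arrays whose labels give both 6 hr and 24 hr. A separate 24 hr pair of Th1 cells with DMSO was not used in the comparisons. The stimulus used to reactivate the cells on these arrays is not given in the sources used here, and nothing says whether both doses came from separate cultures. RNA of each sample was labelled with Cy3 and hybridized beside Cy5-labelled RNA from naive CD4+ T cells of lymph nodes and spleens, with no dye swap. A level below is log2 of sample over naive signal, and a response is the level in reactivated minus that in unstimulated cells of the same pair. Both arrays of a pair lay on the same slide, but Th1 and Th2 flavopiridol arrays lay on different slides, so cell type and slide cannot be told apart. Both DMSO reference pairs lay on a slide that held none of the 8 flavopiridol arrays, so drug and slide cannot be told apart either in any comparison with DMSO. Spike-in controls read -0.03 to 0.99 (log2 after normalization) on the flavopiridol arrays and -0.83 to -0.26 on the DMSO reference arrays. Setting the arrays to them (the spike-in shift) would lower flavopiridol levels against DMSO, most in Th2 cells. Levels below are without this shift, so their order against DMSO rests on the scaling.

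Flavopiridol inhibits cyclin-dependent kinases, among them Cdk9, the kinase of P-TEFb. After RNA polymerase II has started transcription it commonly pauses close to the start site, and P-TEFb phosphorylates the polymerase and its pausing factors so that elongation proceeds. T cell activation switches on immediate early genes within minutes, without new protein synthesis. These include the Fos, Jun and Egr transcription factors, and their products help to induce cytokines and later growth genes. The comparisons below ask which genes still responded to reactivation with the kinase inhibited, and whether this differed between the doses.

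The labels were checked against markers. Of 9 T cell marker genes on the array, 9 were well above background on all 8 flavopiridol arrays, and log2 of their summed Cy3 signal overlapped between the states (17.56 to 17.77 in unstimulated and 17.55 to 17.97 in reactivated cells). Il4, the Th2 cytokine, was above background on the 4 Th2 arrays (levels 2.83 to 3.62) and on none of the 4 Th1 arrays. Ifng, the Th1 cytokine, was above background on the 4 Th1 arrays (7.60 to 8.15) and on none of the 4 Th2 arrays. S100a8 and S100a9, defining genes of neutrophils, were below background on all 8 arrays, as were Lyz2 and Cd14 among the myeloid markers. Of the 9 myeloid markers 7 were above background on at least 1 array, and log2 of their summed signal was 13.71 to 14.84 in unstimulated and 13.67 to 15.02 in reactivated cells. Ranges of the 2 states also overlapped for markers of B, plasma, NK, CD8, regulatory T, erythroid and mast cells. Between 35.4% and 41.5% of the probes were well above background on the flavopiridol arrays, against 48.8% to 52% on the DMSO arrays, so that more genes have only a bound with the drug. In bulk RNA, fewer cells expressing a gene and less RNA per cell cannot be told apart.

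Flavopiridol left a small response, and it was smaller at 10 µM than at 1 µM in each cell type by count. At 1 µM 189 of 11368 genes (1.66%) were at least 2-fold higher in reactivated Th1 cells and 524 of 11369 (4.61%) in reactivated Th2 cells. At 10 µM the counts were 69 of 10749 (0.642%) in Th1 and 90 of 10959 (0.821%) in Th2 cells. With DMSO, 1052 of 12767 genes (8.24%) were at least 2-fold higher in the Th1 pair and 1533 of 13165 (11.6%) in the Th2 pair. These counts compare single arrays and carry no test.

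Decreases were fewer still. At least 2-fold lower in reactivated cells were 28 genes in Th1 cells at 1 µM (0.246%), 20 at 10 µM (0.186%), 46 in Th2 cells at 1 µM (0.405%) and 10 at 10 µM (0.0912%). The corresponding numbers with DMSO were 1069 (8.37%) in Th1 and 1829 (13.9%) in Th2 cells. The SD of the response over genes was 0.37 and 0.28 in Th1 cells at 1 and 10 µM and 0.57 and 0.31 in Th2 cells, against 0.82 and 1.05 with DMSO. Among the flavopiridol pairs, setting the arrays to the spike-in controls moved the median response of all genes most in Th1 cells at 10 µM, from 0.01 to 0.30, and by less than that in the other 3 pairs. In the DMSO pairs the median moved from -0.04 to 0.24 in Th1 cells and, by more than in any flavopiridol pair, from -0.08 to 0.37 in Th2 cells.

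Across the 4 pairs, 24 of 10603 genes tested (0.226%) were called higher and 9 (0.0849%) lower in reactivated cells by limma with Benjamini-Hochberg adjustment, and 2447 had an unadjusted p below 0.05. The calls rest on 4 pairs that differ in dose and cell type and stand in for replicates, and 1 pair at a time decided their number. Without the Th1 1 µM pair 1 gene was higher and 0 lower, without the Th2 10 µM pair 1 and 0, without the Th2 1 µM pair 11 and 0, and without the Th1 10 µM pair 58 and 13. The 10 genes with the largest called increases were Egr4, Egr1, Fos, Jun, Fosb, Phlda1, Ier5l, Mt2, Hspa1a and Cryab. The other 14 were Il12rb2, Egr3, Ubb, Ptprj, Efna4, Etv2, Oxt, Blvra, Ddx24, Ndufb9, Psmb6, Psmc5, Selenov and Rnu2-10, with mean responses of 0.51 to 1.68. Of the 24 genes 13 were above background on all 8 arrays, while 3, Egr3, Egr4 and Etv2, were so on no unstimulated array and entered the test only through the reactivated ones.

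At least 2-fold higher in both cell types at 10 µM were 18 of 10003 genes (0.18%), and 0 genes (0%) were lower. These counts take the measured values, and where an unstimulated signal below background is replaced by its bound, 17 of the 18 remain at least 2-fold higher, the exception being Ccl4. By the gene lists, 7 were immediate early genes (Egr1, Egr4, Fos, Fosb, Jun, Ier2 and Ier5) and 2 heat shock genes (Hspa1a and Cryab), while Nfkbia, Tnf, Ccl4, Il12rb2 and H2bc8 each came from another list, and Ier5l, Mt2, Phlda1 and Cited2 from none. The number moved with the scaling, to 15 at the least (median centring and the mean of all probes) and to 29 with the spike-in shift and 45 with the scanner's log ratio, which also gave 11 lower, where the authors' table gave 2 and Cy3 alone 1. At 1 µM 169 of 10525 genes (1.61%) passed the same criterion, 148 of them also by their bounds, and 10 (0.095%) were lower. Median centring gave 111 higher, no background correction 269 and the scanner's log ratio 422, and 16 were lower with Cy3 alone and with the authors' table and 63 with the scanner's log ratio. Of the 18 genes, 16 were also among the 169, which is 88.9% of the former and 9.47% of the latter. The exceptions were H2bc8 and Ier2. The 16 genes were thus at least 2-fold higher in 4 of 4 pairs as measured, although for Ccl4 in Th2 cells at 10 µM the bound is 1.95-fold.

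**Figure D1:**
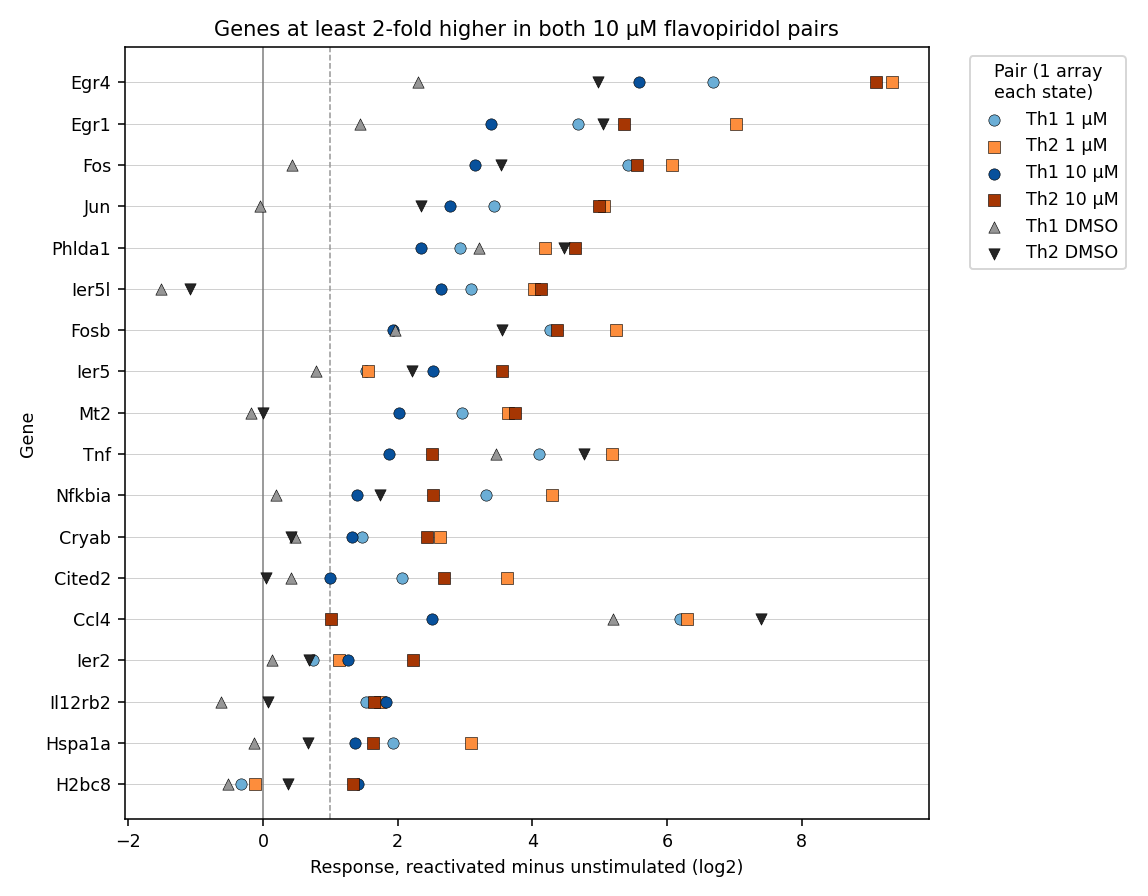
Responses (log2, reactivated minus unstimulated) of the 18 genes that were at least 2-fold higher in both 10 µM pairs, with a point for each flavopiridol pair and for the DMSO pairs, each point being 1 pair of arrays. Egr4 stands at the top with 5.58 to 9.34 in the 4 flavopiridol pairs, while Ier5l lies above 2 in all 4 of them and below 0 in both DMSO pairs.

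Egr4, a zinc finger transcription factor of the early growth response family, had the largest response. Its levels in unstimulated cells were 0.26 and -0.03 in Th1 cells at 1 and 10 µM and -0.03 and -0.15 in Th2 cells, on none of these arrays well above background. In reactivated cells they were 6.93, 5.55, 9.31 and 8.95 in the same order. The increase was therefore at least 79.9-fold and at least 27.1-fold in Th1 cells at 1 and 10 µM, and at least 650-fold and at least 400-fold in Th2 cells. Such bounds replace a dim signal by the higher of its own value and the lowest signal well above background on that array, and are the lower of the values from Cy3 alone and from the ratio to the naive signal. With DMSO the level went from 1.51 to 3.81 in Th1 cells and from 0.31 to 5.29 in Th2 cells. Without the spike-in shift, all 4 reactivated flavopiridol arrays stood above both reactivated DMSO arrays. Egr4 entered the test only through its reactivated arrays, so the fitted mean of 7.67 (SE 0.61, adjusted p 0.0146) rests on dim starting values.

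Egr1, of the same family, had levels of -3.01 and -3.43 in unstimulated and 1.66 and -0.05 in reactivated Th1 cells at 1 and 10 µM. In Th2 cells it went from -3.10 to 3.92 at 1 µM and from -3.34, not well above background, to 2.02 at 10 µM, the latter being at least 41.1-fold. Levels with DMSO were 0.44 and 1.89 in Th1 cells and -2.53 and 2.51 in Th2 cells, so Th1 cells began far lower with the drug than without it. The Egr1 response of 5.11 over the 4 pairs (SE 0.51, adjusted p 0.0237) was not called different from that with DMSO (difference 1.87, SE 1.15, adjusted p 0.231). Egr3 was above background in reactivated cells alone, with increases of at least 1.91-fold and 1.66-fold in Th1 and at least 2.14-fold and 2.76-fold in Th2 cells at 1 and 10 µM.

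Fos, Fosb and Jun encode subunits of the AP-1 transcription factor. Fos levels in unstimulated cells were -3.51 and -3.35 in Th1 cells at 1 and 10 µM and -2.89 and -3.08 in Th2 cells, well above background only in Th1 cells at 1 µM. Reactivated cells had 1.91 and -0.20 in Th1 and 3.19 and 2.47 in Th2 cells. Without the spike-in shift, all 4 of these exceed the reactivated DMSO levels, -1.61 in Th1 and -0.77 in Th2 cells. The Fos increase was at least 8.83-fold in Th1 cells at 10 µM, at least 67.4-fold in Th2 cells at 1 µM and at least 46.7-fold at 10 µM, and its fitted mean response was 5.04 (SE 0.43, adjusted p 0.017).

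Jun was above background on every flavopiridol array, so its values are not bounds. It went from -3.83 to -0.39 and from -3.98 to -1.20 in Th1 cells at 1 and 10 µM, and from -4.87 to 0.19 and from -5.03 to -0.04 in Th2 cells. With DMSO it went from -0.56 to -0.61 in Th1 and from -3.79 to -1.43 in Th2 cells. The mean response of Jun was 4.06 (SE 0.38, adjusted p 0.0205), 2.91 above that with DMSO (SE 0.82, adjusted p 0.0234). In Th1 cells the unstimulated levels with the drug lay more than 3 below that with DMSO, and the reactivated level at 10 µM was also the lower one. Fosb responded by 4.26 in Th1 cells at 1 µM. In the other 3 pairs its unstimulated signal was below background, and the increase was at least 3.23-fold in Th1 cells at 10 µM and at least 37.9-fold and 20.6-fold in Th2 cells at 1 and 10 µM (fitted mean 3.95, SE 0.47, adjusted p 0.0466).

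Ier2, Ier5 and Ier5l are immediate early response genes of the same family. The response of Ier5 was larger at 10 µM in both cell types, 1.53 and 2.52 in Th1 and 1.56 and 3.54 in Th2 cells at 1 and 10 µM. Ier2 followed the same order, with 0.74 and 1.26 in Th1 and 1.12 and 2.22 in Th2 cells. Neither difference between doses was called (adjusted p 0.167 for Ier5 and 0.421 for Ier2). Ier5l moved in opposite directions with and without the drug. Its levels went from -0.17 to 2.92 and from -0.03 to 2.62 in Th1 cells at 1 and 10 µM, and from 0.20 to 4.23 and from 0.28 to 4.40 in Th2 cells, whereas with DMSO they went from 3.05 to 1.54 in Th1 and from 2.44 to 1.36 in Th2 cells. The mean response of Ier5l was 3.47 (SE 0.25, adjusted p 0.0131), 4.77 above that with DMSO (SE 0.42, adjusted p 0.00019). It was the only one of the 18 genes among the 873 that were at least 2-fold lower in both DMSO pairs.

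Nfkbia encodes the inhibitor IκBα, itself a target of NF-κB that restrains the pathway. It was far below the naive level in unstimulated flavopiridol cells, at -5.14 and -4.94 in Th1 and -4.23 and -4.24 in Th2 cells at 1 and 10 µM. Reactivation brought it to -1.83 and -3.54 in Th1 and to 0.05 and -1.72 in Th2 cells, below the reactivated DMSO levels of 1.80 and 1.63 in all 4 pairs. Nfkbia was at least 2-fold higher in 4 of 4 pairs but missed the threshold (mean 2.88, SE 0.41, adjusted p 0.0517). Tnf, an inflammatory cytokine, had responses of 4.10 and 1.87 in Th1 and 5.17 and 2.51 in Th2 cells at 1 and 10 µM, against 3.46 and 4.76 with DMSO in Th1 and Th2 cells (mean 3.41, SE 0.50, adjusted p 0.0547). In Th2 cells at 10 µM its increase is a bound, at least 5.64-fold. The Cy5 signal of Tnf rose by 1.02 in the Th1 DMSO pair, and on Cy3 alone the Th1 responses were 4.40 at 1 µM and 4.49 with DMSO.

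The stress-inducible genes Mt2, Hspa1a and Cryab rose on reactivation in flavopiridol-treated cells, while their DMSO responses lay between -0.18 and 0.66. Mt2, a metal-binding metallothionein, went from 1.83 to 4.79 and from 1.57 to 3.59 in Th1 cells at 1 and 10 µM, and from 2.07 to 5.70 and from 1.44 to 5.17 in Th2 cells. With DMSO its levels were 4.67 and 4.49 in Th1 and 3.93 and 3.93 in Th2 cells. Without the spike-in shift, the unstimulated levels with flavopiridol were thus all below those with DMSO, and the reactivated levels were above in 3 of 4 pairs. Its mean response was 3.09 (SE 0.27, adjusted p 0.017), 3.18 above that with DMSO (SE 0.45, adjusted p 0.00119). Mt1, a metallothionein gene like Mt2, went from 4.78 to 4.76 and from 5.14 to 4.51 in Th1 cells at 1 and 10 µM, and from 4.45 to 5.34 and from 4.30 to 5.28 in Th2 cells. The Cy5 signal of Mt2, which comes from the common naive RNA, also rose between the arrays of each pair, by 0.63 and 0.34 in Th1 and by 1.79 and 1.19 in Th2 cells at 1 and 10 µM, and its Cy3 signal alone rose by 3.60, 2.36, 5.43 and 4.92. Cy5 changes for the 18 genes ranged from -0.85 to 1.79 with a median of 0.08, and their part in the ratios was not tested.

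Hspa1a encodes an inducible chaperone of the Hsp70 family and Cryab the small heat shock protein αB-crystallin. Hspa1a responded by 1.92 and 1.37 in Th1 and by 3.09 and 1.64 in Th2 cells at 1 and 10 µM (mean 2.00, SE 0.26, adjusted p 0.0476). It was below background in unstimulated cells of 3 pairs, where the increase was at least 2.23-fold (Th1, 10 µM), at least 6.79-fold (Th2, 1 µM) and at least 3-fold (Th2, 10 µM). Hspa1a has a near-identical copy, Hspa1b, and whether the probe separates them was not tested. Cryab was high already in unstimulated cells, at 3.30 and 3.50 in Th1 and 2.33 and 2.23 in Th2 cells at 1 and 10 µM, where both unstimulated DMSO arrays had -0.05 and -0.10. It rose further to 4.77, 4.82, 4.96 and 4.66 with reactivation (mean response 1.97, SE 0.23, adjusted p 0.0437).

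Il12rb2 encodes the signalling subunit of the interleukin-12 receptor, a Th1 identity gene. Its responses were close to each other, 1.53 and 1.82 in Th1 and 1.73 and 1.65 in Th2 cells at 1 and 10 µM. Levels went from 1.64 to 3.17 and from 1.69 to 3.51 in Th1 cells and from 0.72 to 2.45 and from 0.67 to 2.32 in Th2 cells. In DMSO cells they went from 1.60 to 0.98 in Th1 and from -0.28 to -0.20 in Th2 cells, so the increase was not present there. Its mean response of 1.68 (SE 0.07, adjusted p 0.00116) was 1.96 above that with DMSO (SE 0.21, adjusted p 0.000365). Averaging all its probes left it under 2-fold in at least 1 of the 10 µM pairs.

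Phlda1, a pleckstrin homology-like gene induced by T cell receptor signals, was among the 6 of the 18 genes that were also at least 2-fold higher in both DMSO pairs. It went from -1.18 to 1.74 and from -1.83, not well above background, to 0.52 in Th1 cells at 1 and 10 µM, and from -0.39 to 3.80 and from -1.51 to 3.12 in Th2 cells. With DMSO it went from 1.07 to 4.27 and from -0.04 to 4.42, so both states were lower with the drug in each pair. The mean response of Phlda1 was 3.52 (SE 0.36, adjusted p 0.0256), and its difference from DMSO was -0.31 (SE 0.65, adjusted p 0.731). Cited2, a transcriptional co-regulator that binds CBP and p300, had responses of 2.06 and 1.00 in Th1 and 3.62 and 2.68 in Th2 cells at 1 and 10 µM, against 0.42 and 0.04 with DMSO (mean 2.34, SE 0.37, adjusted p 0.0655). It was at the 2-fold limit in Th1 cells at 10 µM.

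**Figure D2:**
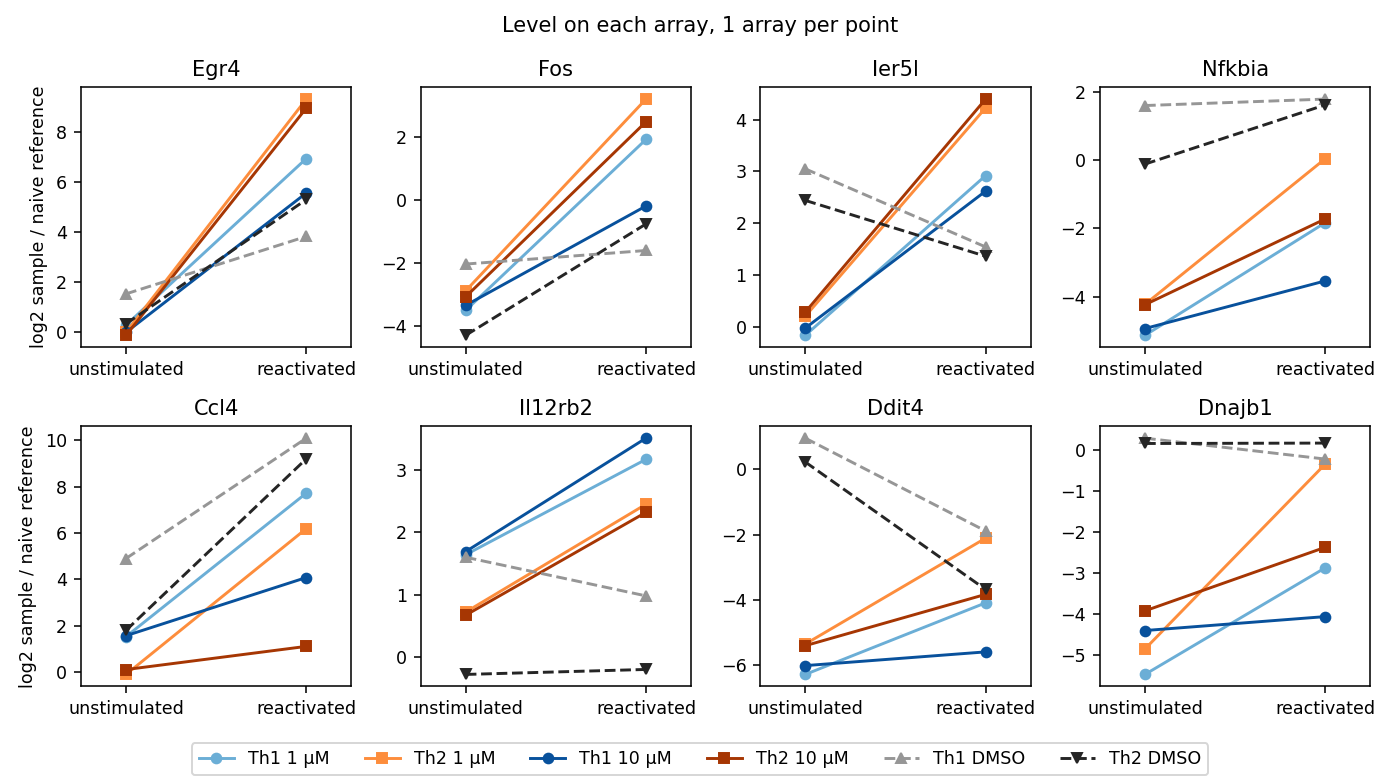
Levels (log2 of sample over naive signal) of selected genes in unstimulated and reactivated cells of each pair, joined by a solid line for flavopiridol and a dashed line for DMSO, each point being 1 array. For Nfkbia the reactivated flavopiridol levels of -3.54 to 0.05 remain below the DMSO levels of 1.80 and 1.63, and for Fos they lie above the DMSO levels.

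The starting levels of these 18 genes were often below those with DMSO. The genes were chosen by a large difference between the states, which favours low starting levels, and some of these were below background. The same comparison over all genes is not given here. In unstimulated Th1 cells 3 of the 18 stood above the matching DMSO array at 1 µM and 3 at 10 µM, with median differences of -1.71 and -1.79. In unstimulated Th2 cells 8 and 7 stood above it, with medians of -0.34 and -0.50. After reactivation 12 and 8 of 18 were above DMSO in Th1 cells at 1 and 10 µM (medians 0.52 and -0.40) and 15 and 13 in Th2 cells (medians 1.64 and 1.31). These counts and medians are without the spike-in shift, which would lower the flavopiridol levels against DMSO. Of the 18 genes, 12 kept an at least 2-fold increase in both 10 µM pairs under all 7 other scalings of the data. Ccl4 fell short with median centring and with Cy3 alone, H2bc8 and Hspa1a with median centring, and Cited2, Cryab and Il12rb2 with the mean of all probes.

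Promoter sequences of these genes are given for the windows held by RefSeq (GRCm38.p6), from 250 bases before to 50 bases after the start of the gene. A window was found for 13 of the 18 genes, and none for Ccl4, Cryab, Egr1, Ier2 and Phlda1. The letters TATAAA, searched on both strands, were found in 4 of the 13 windows (30.8%), against 9.12% of 8531 tested genes with at least 1 window and 15.7% of all genes with one. Among the genes called higher over the 4 pairs they were found in 1 of 18 (5.56%). In the 13 windows they belong to Fos, Tnf, Nfkbia and H2bc8, in Nfkbia at 20 to 25 after the start. Fos and Tnf are shown as 2 members with this match upstream of the start site (capitals), Mt2 for its AP-1 match TGACTCA (capitals), which 7.69% of the 13 and 4.49% of the tested windows hold, and Nfkbid as a gene whose response was smaller at 10 µM, with its κB matches GGGANTTCC and its CRE match TGACGTCA in capitals. RefSeq holds 3 windows for Nfkbid, and the one shown was chosen for these matches, which the others lack.
Fos, chr12:85473740-85473889, plus strand: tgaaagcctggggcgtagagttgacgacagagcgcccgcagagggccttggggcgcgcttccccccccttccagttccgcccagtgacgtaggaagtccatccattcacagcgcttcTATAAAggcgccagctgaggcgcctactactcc
Tnf, chr17:35202008-35202157, minus strand: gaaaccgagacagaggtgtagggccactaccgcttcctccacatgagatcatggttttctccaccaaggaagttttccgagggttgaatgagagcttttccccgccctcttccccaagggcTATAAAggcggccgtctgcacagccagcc
Mt2, chr8:94172468-94172617, plus strand: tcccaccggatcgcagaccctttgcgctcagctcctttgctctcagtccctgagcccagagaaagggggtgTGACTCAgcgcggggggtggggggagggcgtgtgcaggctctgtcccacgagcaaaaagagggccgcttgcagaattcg
Nfkbid, chr7:30422156-30422405, plus strand: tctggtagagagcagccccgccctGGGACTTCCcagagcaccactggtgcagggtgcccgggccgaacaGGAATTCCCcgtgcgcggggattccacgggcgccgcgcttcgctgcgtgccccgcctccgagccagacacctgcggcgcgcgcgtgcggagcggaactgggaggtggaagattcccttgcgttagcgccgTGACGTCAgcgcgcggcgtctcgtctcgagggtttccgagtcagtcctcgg
The match lies at -33 to -28 from the start in Fos and at -29 to -24 in Tnf, at -79 to -73 in Mt2, and at -226 to -218, -181 to -173 (both κB) and -51 to -44 (CRE) in Nfkbid. The κB letters were in 7.69% of the 13 windows (Il12rb2) and 2.73% of those tested, the CRE letters in 0% and 3.56%, the NFAT core GGAAA in 38.5% and 64.1%, and the CArG box in 0% and 1.64%. A match is a description of the letters, not of a factor bound there, and letters outside these windows were not searched.

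The response differed between the doses for 16 genes by limma with Benjamini-Hochberg adjustment, 15 of 10603 (0.141%) with a smaller response at 10 µM and 1 (0.00943%), H2bc8, with a larger one. The doses also lay at different positions of each slide, which cannot be told apart from dose. An unadjusted p below 0.05 was found for 1147. The calls depended on the processing. With the scanner's log ratio 0 genes were called for dose, without background correction 1, with Cy3 alone 4 and with the spike-in shift 159, and Ccl4, Nfkbid, Il21, Cd69 and Gal3st2 each lost the call under 3 to 5 settings. The 15 genes were Ccl4, Nfkbid, Il21, Cd69, Gal3st2, Bdh2, Map3k8, Tnfrsf10b, Gtse1, Polk, Skor1, Stx17, Vamp5, Wfikkn1 and 1700001P01Rik. Leaving out a pair leaves 1 pair at its dose, so that the spread comes from the other dose alone, and no count of dose calls is given for such fits. With 2 pairs per dose, single doses were tested in a fit with dose in the model, which was added after the data had been seen. It called 443 genes higher (4.18%) and 208 lower (1.96%) at 1 µM. At 10 µM it called 3 higher (0.0283%), namely Il12rb2, Ier5 and H2bc8, and 0 lower (0%), with 654 higher and 444 lower at an unadjusted p below 0.05.

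**Figure D3:**
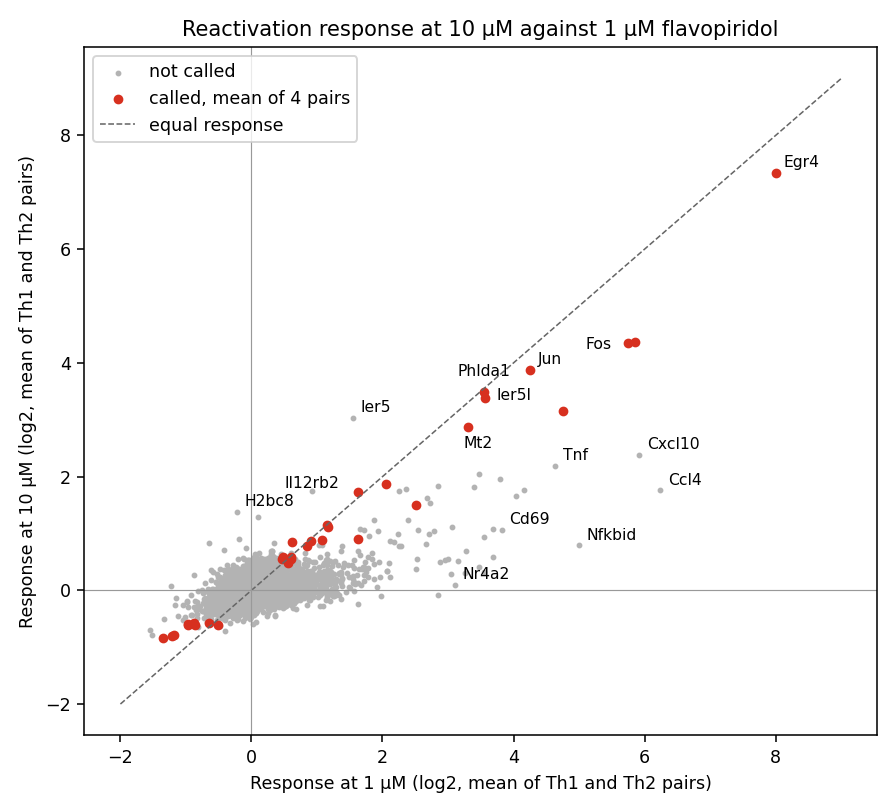
Mean response at 10 µM against that at 1 µM (both log2, averaged over Th1 and Th2 pairs), with a point per gene tested, called genes in red and a dashed line of equal response. Most labelled genes lie below the line of equal response, such as Nfkbid and Ccl4, while Ier5 and H2bc8 lie above it.

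Ccl4, a chemokine that attracts monocytes and T cells, was called with a smaller response at 10 µM. In Th1 cells it went from 1.53 to 7.72 at 1 µM and from 1.57 to 4.08 at 10 µM. In Th2 cells, where unstimulated levels were not well above background, it reached 6.19 at 1 µM and 1.11 at 10 µM, which is at least 43.3-fold and at least 1.95-fold. The response was 4.48 smaller at 10 µM (SE 0.43, adjusted p 0.0319). At 1 µM the Th1 response was 6.19 and that of the Th1 DMSO pair 5.20, but the naive (Cy5) signal of Ccl4 rose by 2.47 in that DMSO pair, and on Cy3 alone the order was reversed, 5.86 with flavopiridol and 7.66 with DMSO.

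Nfkbid encodes a nuclear IκB protein that modulates NF-κB. Its responses were 4.45 and 0.29 in Th1 and 5.53 and 1.29 in Th2 cells at 1 and 10 µM, a difference of -4.20 (SE 0.42, adjusted p 0.0319). With DMSO it responded by 2.39 in Th1 and 3.73 in Th2 cells, so at 1 µM both values were above DMSO and at 10 µM both were below. Cd69, an early activation receptor that retains lymphocytes in tissue, had 3.77 and 0.73 in Th1 and 3.88 and 1.38 in Th2 cells (difference -2.77, SE 0.22, adjusted p 0.027), and only in Th1 cells at 1 µM was its unstimulated signal above background. Il21, a cytokine of activated helper T cells, responded by 3.63 and 0.43 in Th1 and 2.89 and 0.18 in Th2 cells (difference -2.95, SE 0.25, adjusted p 0.0275). In Th2 cells it was above background only when reactivated at 1 µM, an increase of at least 5.48-fold, so the other Th2 value lies between dim signals. Gal3st2, encoding a galactose sulfotransferase, responded by 2.64 and -0.01 in Th1 and 3.45 and 0.58 in Th2 cells (difference -2.76, SE 0.30, adjusted p 0.0418). In Th1 cells it was above background only when reactivated at 1 µM, at least 5.55-fold. It is not among the genes induced with DMSO, where its responses were -0.09 and -0.30.

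At least 2-fold higher in both 1 µM pairs and under 1.5-fold in both 10 µM pairs were 82 genes. The share of all genes under 1.5-fold in both 10 µM pairs is not given here, so the count is a description. It includes genes below background on every 10 µM array, such as Cyp2d40 and Cebpd, where no increase was measurable. The largest of the 82 were Cyp2d40, Il21, Cebpd, Nr4a2 and Gal3st2. Nr4a2, an orphan nuclear receptor of the immediate early class, had responses of 2.21 and 0.07 in Th1 and 4.0 and 0.12 in Th2 cells at 1 and 10 µM, above background on all 8 arrays. Cebpd, a bZIP transcription factor of inflammation, responded by 2.76 in Th1 cells and by at least 8.09-fold in Th2 cells at 1 µM, and was above background on none of the 4 arrays at 10 µM, so no increase was detectable there. The reverse pattern was found in 1 gene, H2bc8, a histone H2B gene, with -0.33 and 1.41 in Th1 and -0.12 and 1.34 in Th2 cells (difference 1.59, SE 0.14, adjusted p 0.0319).

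Most genes that responded to reactivation with DMSO had a response near 0 with flavopiridol. Against DMSO, limma called 2948 of 13111 genes (22.5%) with a more positive and 2563 (19.5%) with a more negative response. With the spike-in shift the numbers were 1551 and 3179, so which direction was the more frequent rests on the scaling. At least 2-fold higher in both DMSO pairs were 884 of 12406 genes (7.13%) and at least 2-fold lower 873 (7.04%). These groups were defined on the DMSO arrays that also enter the test, so their counts of calls are a description. Of the 884 genes, 852 of 882 tested were called with a smaller response with flavopiridol and 1 with a greater one. Their median response was 1.59 and 1.96 in the Th1 and Th2 DMSO pairs, and -0.01, 0.05, -0.07 and -0.03 in the Th1 1 µM, Th1 10 µM, Th2 1 µM and Th2 10 µM pairs. The medians of all genes were -0.04, 0.01, -0.11 and -0.03. Those still at least 2-fold higher were 35 and 7 in Th1 cells at 1 and 10 µM and 57 and 16 in Th2 cells.

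The 873 genes lower with DMSO had medians of -1.37 and -1.77 there, and of -0.06, 0, -0.16 and -0.05 with flavopiridol in the same order. Of 872 tested, 872 were called with a more positive response. At least 2-fold lower remained 0, 0, 1 and 0 genes. By these medians both directions of the DMSO response were near 0 in every flavopiridol pair. The medians include genes below background there, for which no response could be measured. Of the 884 genes, 716 had signal above background in both 1 µM pairs and 681 in both 10 µM pairs.

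**Figure D4:**
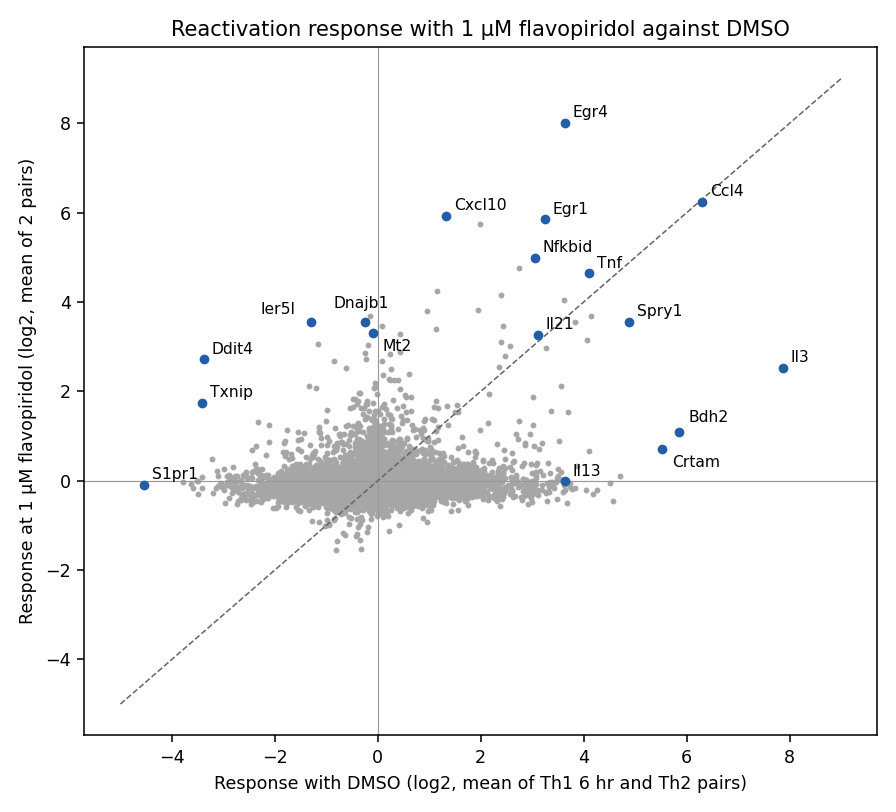
Mean response at 1 µM flavopiridol against the mean DMSO response (both log2, averaged over Th1 and Th2 pairs), with a point per gene tested and a dashed line of equal response. Most points lie along 0 on the flavopiridol axis over the whole DMSO range, with Egr4 and Egr1 above the line and Ier5l, Ddit4 and Txnip above 0 where DMSO is below 0.

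The 10 genes with the largest DMSO increases were chosen on DMSO arrays that also enter the test, so their adjusted p-values are a description. All but Ccl4 were called with a smaller response with flavopiridol. Ccl4 kept 6.19 and 6.29 in Th1 and Th2 cells at 1 µM, and 2.51 and 1.00 at 10 µM. Its difference from DMSO was not called (-2.30, SE 1.52, adjusted p 0.263). Il3, a haematopoietic growth factor, responded by 8.28 and 7.47 with DMSO in Th1 and Th2 cells, but by 1.63 and 0.44 in Th1 and 3.42 and 0.67 in Th2 cells at 1 and 10 µM (difference -6.33, SE 0.76, adjusted p 0.000633). Csf2, encoding GM-CSF, responded by 6.64 and 6.29 with DMSO and by 1.01, -0.04, 2.39 and 0.02 with flavopiridol in the same order (difference -5.62, SE 0.63, adjusted p 0.000476). Il2, the T cell growth factor, gave 7.18 and 6.00 with DMSO and 0.88, -0.05, 1.87 and 0.03 with flavopiridol (difference -5.91, SE 0.56, adjusted p 0.00025). From unstimulated signals below background, the increase in Th2 cells at 1 µM was at least 7.05-fold for Il3, 3.91-fold for Csf2 and 2.91-fold for Il2. The naive (Cy5) signal also rose between the arrays of the Th1 and Th2 DMSO pairs, by 2.24 and 1.36 for Il3 and by 2.32 and 2.19 for Il2 (0.47 and -0.07 for Csf2). Under other settings the difference from DMSO was -8.41 to -3.73 for Il3, -6.13 to -2.16 for Csf2 and -8.68 to -2.08 for Il2, and all 3 calls were lost with the scanner's log ratio. For Csf2 and Il2 neither state was well above background at 10 µM, so no increase was detectable there. The reactivated Th2 array at 1 µM held the largest remaining values of all 3, while the measured values of the 10 µM pairs were within 0.67 of 0. For Il3 the unstimulated signals at 10 µM were below background, so its increases there are bounds, at least 1.28-fold in Th1 and 1.46-fold in Th2 cells. Tnfsf11, encoding RANKL, was not well above background on any flavopiridol array, against responses of 4.37 and 4.86 with DMSO.

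The genes that responded with flavopiridol were set beside those that responded with DMSO. Of the 169 genes at least 2-fold higher in both 1 µM pairs, 32 (18.9%) were among the 884 genes (3.62% of these), and of the 18 genes at 10 µM 6 (33.3%, or 0.679% of the 884). Of all genes tested in both 1 µM pairs 6.8% were among the 884, and of those tested in both 10 µM pairs 6.81%. Under 1.5-fold higher in both DMSO pairs were 110 of the 169 genes (65.1%), against 77.7% of all genes tested in both 1 µM pairs. In the reverse direction, 6 of the 169 (3.55%) were at least 2-fold lower in both DMSO pairs, below the 7.04% of all genes. Among the 18 genes the response was called greater than with DMSO for 9 and smaller for 0, a comparison in which the flavopiridol values had chosen the genes.

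Of 17 quiescence and homing genes, 3 (Btg1, Txnip and Tob1) were called higher at 1 µM, beside 4.18% of all genes, and 0 over the 4 pairs, where the list's median was 0.06. Btg1 also rose with DMSO, by 0.69 and 1.57 in Th1 and Th2 cells, and its difference from DMSO was not called (-0.04, SE 0.62, adjusted p 0.964). Ddit4, an inhibitor of mTORC1 induced by stress, had responses of 2.19 and 0.42 in Th1 and 3.24 and 1.57 in Th2 cells at 1 and 10 µM, but of -2.85 and -3.90 with DMSO (difference 5.23, SE 0.69, adjusted p 0.000909). Its levels with flavopiridol were -6.28 to -5.35 in unstimulated and -5.59 to -2.11 in reactivated cells, so it stayed below naive cells throughout. Txnip, which limits glucose uptake, had 1.1 and 0.03 in Th1 and 2.39 and 0.61 in Th2 cells, against -3.17 and -3.68 with DMSO (difference 4.45, SE 0.57, adjusted p 0.00078). Tob1, an antiproliferative gene, had 1.79 and 0.85 in Th1 and 3.56 and 2.38 in Th2 cells, against -0.61 and -1.1 (difference 3.0, SE 0.64, adjusted p 0.00722). The unstimulated signal of Tob1 was below background in 3 pairs, where its increase was at least 3.4-fold (Th1, 1 µM), 1.53-fold (Th1, 10 µM) and 11.8-fold (Th2, 1 µM). Dnajb1, a co-chaperone of Hsp70, responded by 2.60 and 0.34 in Th1 and 4.51 and 1.54 in Th2 cells, and its difference from DMSO was not called (2.50, SE 0.97, adjusted p 0.0734).

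Of 27 immediate early transcription factor genes on the array, 22 were above background on enough flavopiridol arrays to be tested. Called higher over the 4 pairs were 6 and lower 0, and 12 were called higher at 1 µM, beside 0.226% and 4.18% of all genes. These counts include genes with no unstimulated array above background, Egr3 and Egr4 among the 6 and, counting the 1 µM arrays, 4 among the 12. Of all 27 genes, 12 were at least 2-fold higher in both cell types at 1 µM, 7 at 10 µM and 12 with DMSO, beside 1.61%, 0.18% and 7.13% of all genes. The median response of the 22 was 1.01 and 0.38 in Th1 and 1.20 and 1.16 in Th2 cells at 1 and 10 µM, with 13 above 0 in 4 of 4 pairs. Over the mean of the pairs the list's median was 1.24, and 0.75 to 1.80 under the other scalings. Of 14 genes for NF-κB subunits and inhibitors 0 were called over the 4 pairs and 4 at 1 µM, and at least 2-fold higher were 4 at 1 µM and 1, Nfkbia, at 10 µM. Of 14 heat shock genes 2 were called, Hspa1a and Cryab, and 3 at 1 µM, while the median of the list was 0.07, -0.01, 0.26 and 0.13 in the Th1 1 µM, Th1 10 µM, Th2 1 µM and Th2 10 µM pairs.

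Of 16 tested cytokine and growth factor genes 0 were called over the 4 pairs and 4 at 1 µM, with medians of 0.12, 0.12, 0.08 and 0.04 in the same order, against 2.38 and 4.09 with DMSO. Of all 27 listed cytokine and growth factor genes, 6 were at least 2-fold higher in both cell types at 1 µM and 1, Tnf, at 10 µM, and 18 with DMSO, against the same shares of all genes. Among 5 tested chemokine ligands 3 were called at 1 µM, and the 2 that were at least 2-fold higher in both cell types there were Ccl4 and Cxcl10, with Ccl4 alone so at 10 µM. Cxcl10 responded by 4.34 and 0.92 in Th1 cells at 1 and 10 µM, and by at least 7.33 and at least 3.42 in Th2 cells (fitted mean 4.15, SE 0.89, adjusted p 0.108). Of 18 activation receptors 1 was called at 1 µM, and of 16 signal feedback genes, which hold Dusp, Spry and Socs members, 6 were called higher and 1 lower at 1 µM, with 0 at 10 µM. Among the 6, Spry1 was above background on no unstimulated 1 µM array. Over all genes the shares at 1 µM were 4.18% higher and 1.96% lower.

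Ribosome biogenesis genes had medians of 0.01 and 0.08 in Th1 and -0.08 and -0.03 in Th2 cells at 1 and 10 µM, against 2.02 and 2.72 with DMSO, where 22 of 24 were at least 2-fold higher in both pairs (7.13% of all genes). The response was called smaller with flavopiridol for 24 of 24, beside 19.5% of all genes. Called higher at 1 µM was 1 of the 24, beside 4.18% of all genes. This was Nop2, a ribosomal RNA methyltransferase, with 0.71 in Th1 and 1.96 in Th2 cells (mean 1.34, adjusted p 0.0355). Of 12 Th1 identity genes 1, Il12rb2, was called higher over the 4 pairs and of 12 Th2 identity genes 0, beside 0.226% of all genes. Called higher at 1 µM were 2 and 0 of these lists and at 10 µM 1 and 0, beside 4.18% and 0.0283% of all genes. Among 77 cytosolic ribosomal protein genes 0 were called. Of 22 genes for P-TEFb, elongation factors and BET proteins 0 were called over the 4 pairs and 1 at 1 µM, with medians between -0.02 and 0.04. Hexim1, too dim for that test, rose at least 1.76-fold in Th1 and 5.52-fold in Th2 cells at 1 µM, and 2.9-fold in Th2 cells at 10 µM. Of 26 list members tested against DMSO, 7 were called greater, among them Hexim1 (1.69, SE 0.55, adjusted p 0.0414), and 5 smaller. The shares of all genes were 22.5% and 19.5%. Of 13 p53 target genes 3 and of 11 integrated stress response genes 4 were called higher at 1 µM, where 4.18% of all genes were, and 0 of either over the 4 pairs.

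**Figure D5:**
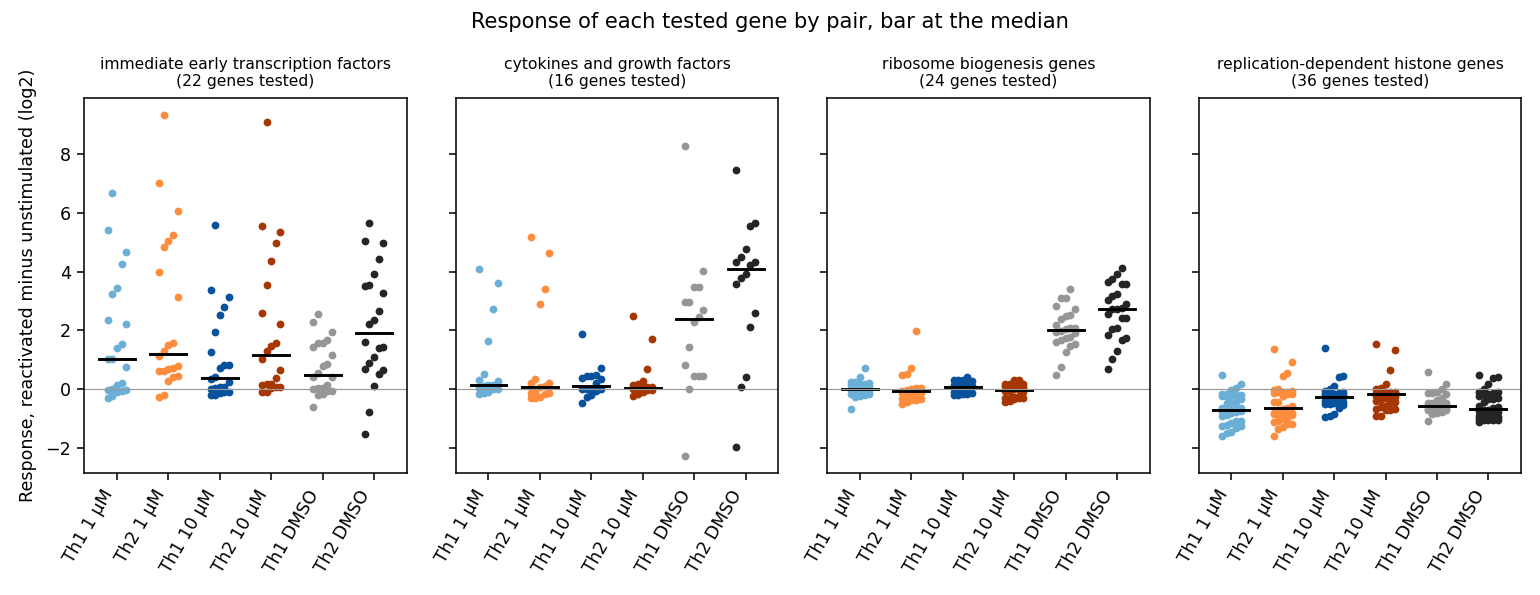
Responses (log2) of the members of selected gene lists in each flavopiridol pair and the DMSO pairs, with a point per gene and the median marked. Ribosome biogenesis genes lie near 0 with flavopiridol and around 2.02 and 2.72 with DMSO, while the histone genes lie mostly below 0 in every pair.

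Among the genes called lower, histones had the largest mean falls. Xist had a mean of -1.15 (SE 0.16) but was not called (adjusted p 0.0508). Of the 9 genes called lower, 5 were replication-dependent histone genes, H1f4 (mean -1.09, SE 0.14, adjusted p 0.0476), H1f5 (-1.01, SE 0.11, adjusted p 0.0266), H2bc1 (-0.99, SE 0.11, adjusted p 0.03), H2bc14 (-0.79) and H2bc18 (-0.78). The others were Fam193b, Rad54b, Cbfb and Hnrnpdl, at -0.73 to -0.56. Of 36 histone genes tested, 28 were below 0 in 4 of 4 pairs, and 20 were called lower and 1 higher at 1 µM, beside 1.96% and 4.18% of all genes. The medians of the list were -0.70 and -0.26 in Th1 and -0.66 and -0.18 in Th2 cells at 1 and 10 µM, and -0.57 and -0.69 in the Th1 and Th2 DMSO pairs. Values below 0 were thus the rule without the drug as well. Over the mean of the 4 pairs 31 of 36 were below 0, or 30 with the spike-in shift, and the median of -0.44 lay between -0.56 and -0.34 under the other scalings. Levels of H1f5 were 5.74 and 5.71 in unstimulated and 4.48 and 4.78 in reactivated Th1 cells at 1 and 10 µM, and 6.53 and 6.38 against 5.35 and 5.69 in Th2 cells. Its Cy5 signal changed by -0.892 and -0.247 in Th1 and by -0.683 and -0.477 in Th2 cells at 1 and 10 µM. On Cy3 alone the H1f5 responses were -2.145, -1.174, -1.867 and -1.163 in that order. Of the 10 genes at least 2-fold lower in both 1 µM pairs, 7 were histone genes and the others Ceacam16, Tnrc6a and Xist. Histone genes are near-identical copies, and cross-hybridization among them was not tested.

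Between the cell types, more genes were at least 2-fold higher in Th2 than in Th1 cells at both doses, but at 10 µM a 1.5-fold threshold turned this round (287 in Th1 and 268 in Th2 cells), as did genes at least 2-fold lower (20 and 10). For the difference itself limma called 0 genes (0%) as different between Th2 and Th1 cells, with 537 at an unadjusted p below 0.05. The number rests on the model, since with dose fitted together with cell type 18 genes were called, with median centring 6 and with the spike-in shift 9. Of the 189 genes with an at least 2-fold increase in Th1 cells at 1 µM, 169 had one also in Th2 cells (89.4%, and 32.3% of the 524). At 10 µM the shared genes were 18, 26.1% of those in Th1 and 20% of those in Th2 cells. Within a cell type, 18 genes were shared by both doses in Th1 cells (9.52% of those at 1 µM and 26.1% of those at 10 µM), and 74 in Th2 cells (14.1% and 82.2%). As a description over genes, which share arrays and are not replicates, the Th1 and Th2 responses had a Pearson's r of 0.77 at 1 µM and 0.46 at 10 µM (Spearman's rho 0.52 and 0.31). These arrays share no sample but were all normalized against the same naive RNA.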

How the data were processed

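RNA of mouse Th1 and Th2 cells, differentiated in vitro, was measured on 2-colour Agilent arrays of 62976 spots, with each sample in Cy3 and naive CD4+ T cell RNA in Cy5. The authors deposited scanner output (Feature Extraction 10.7.1.1) with the intensity of each spot in both channels and its log10 ratio, and a table of normalized log2 ratios for 34710 probes. Set against the scanner values, the table had the same direction and scale (r 0.981 to 0.996, slope 0.967 to 1.035; column medians -0.017 to 0.014), and how it was centred is not given in the sources used here.

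From the deposited median intensity of spot and background, signals were corrected with normexp (offset 50), normalized by loess within each array and expressed as log2(Cy3/Cy5) in R 4.3.3 with limma 3.58.1. Control and outlier spots were left out and repeat spots averaged. Of 55681 probes, 26425 were named through RefSeq accessions (20022 symbols) and 29256 had no symbol, and a gene was represented by its brightest probe. Genes entered with Cy3 well above background on at least 4 of the 8 flavopiridol arrays (2 of 12 with DMSO). Reactivated minus unstimulated values of each pair were tested by limma's lmFit and eBayes with Benjamini-Hochberg adjustment, called at an adjusted p below 0.05, after the script had been tested on simulated data. Adjusted p-values in the text are from this test, and they measure the spread between pairs, which differ in dose or cell type. Each condition had 1 array, which limits the precision. Unstimulated and reactivated cells also lay at different positions of each slide, so position and state cannot be told apart. On both flavopiridol slides the 1 µM arrays lay in columns 3 and 4 and the 10 µM arrays in columns 1 and 2. Position and dose therefore cannot be told apart either.

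Alternatives were median centring, a spike-in shift, Cy3 alone, the scanner's log ratio, the authors' table, no background correction, the mean of all probes, other filters, no pair block, and leaving out each pair. Named genes were the 10 called genes with the largest mean response in each direction, the 10 largest DMSO responses, up to 5 genes restricted to a dose, called for dose, or called for cell type, up to 4 members of each gene list, and all genes at least 2-fold higher in both 10 µM pairs or lower in both 1 µM pairs. The members and lists were chosen with earlier results of these data known.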

Additional observations from a re-analysis of the deposited data

Results flagged for a closer look

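Of the responses tested for a difference between doses, 16 genes were called between 10 µM and 1 µM by limma with Benjamini-Hochberg adjustment, but 0 with the scanner's log ratio. Those named are Ccl4 (-4.48), Nfkbid (-4.20), Il21 (-2.95), Cd69 (-2.77) and Gal3st2 (-2.76), each with a smaller response at 10 µM in both cell types. Except for Nfkbid, some of their unstimulated signals were below background, so that the differences rest in part on bounds.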

How the results depend on the processing

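Called counts over the 4 pairs moved with the processing. As reported they were 24 higher and 9 lower, with 16 for dose and 0 for cell type. Median centring gave 77, 45, 52 and 6 in that order, and the spike-in shift 575, 36, 159 and 9. The scanner's log ratio gave 2 higher, 0 lower and 0 for dose, no background correction 10, 0 and 1, the mean of all probes 41, 20 and 27, and no filter on dim genes 8, 0 and 3. Cy3 alone gave 19 lower and 4 for dose. A fit with no pair block gave 44 higher and 16 lower. Dose and cell type fitted together gave 167 for dose and 18 for cell type. With dose in the model, added after the data had been seen, the mean gave 385 higher and 195 lower, 1 µM 443 and 208, and 10 µM 3 and 0. Leaving out each pair gave 1 to 58 higher, 0 to 13 lower and 20 to 465 for dose. Against DMSO the spike-in shift moved the 2948 more positive responses to 1551.

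Counts of genes at least 2-fold higher, 189 and 69 in Th1 cells at 1 and 10 µM and 524 and 90 in Th2 cells, became 664, 341, 1293 and 437 with the scanner's log ratio. A 1.5-fold threshold gave 545, 287, 1012 and 268. Genes above background on both arrays of a pair gave 120, 20, 314 and 42, since genes dim in unstimulated cells are then left out. Median centring gave 122 and 36 in Th1 cells and 56 in Th2 cells at 10 µM, no background correction 354, 183 and 186 for the same pairs, the spike-in shift 168 and Cy3 alone 104 in Th1 cells at 10 µM. The cause of these changes was otherwise not tested. Of the values for named genes under other settings, 1 reversed. For Ccl4 the flavopiridol response minus that with DMSO was 1.95 with the scanner's log ratio, against -2.30 as reported, and neither was called. Over the settings Egr4 stayed between 5.69 and 9.68, Ier5l between 2.87 and 4.2 and Jun between 3.73 and 4.49, with 3, 3 and 5 settings in which the call was lost. Less stable were Fosb, lost in 9 of 16 settings, Hspa1a, between 1.11 and 3.83, and Cryab, between 0.92 and 2.47. The 9 genes called lower each lost the call in 7 to 9 of 17. Low signal limits what can be said of genes below background in unstimulated cells, which have only bounds.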
